A study of Sus scrofa with 7 samples.

Results

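The 5 genes that encode the intermediate filament proteins of nerve cells, PRPH, NEFL, NEFM, NEFH and INA, were followed in the piglet hypothalamus with and without antibiotics in the gut. They were chosen from their values in the authors' deposited table, in which PRPH had one of the largest rises, together with their shared role, so their group differences are given as a description with no test added. Each of the 5 symbols matched 1 of the 16991 features of that table, and all 5 were among the 13352 features that the authors had tested. The control group was infused in the distal ileum with 10 mL of saline (0.9% NaCl), and the antibiotic group with the same volume of saline holding 3 drugs. These were, per kg of body weight and day, 150 mg of ampicillin, 4 mg of gentamicin and 30 mg of metronidazole. Both groups were Duroc x Landrace x Large White piglets at postnatal day 45 that had been fitted with a T-cannula for the infusion. Hypothalamus libraries came from 4 control and 3 antibiotic piglets.

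Neurofilaments are the main structural fibres of axons, and their amount and spacing help to set how thick an axon becomes and so how fast it conducts. NEFL encodes the light subunit, the core on which the polymer is built, and NEFM and NEFH encode the medium and heavy subunits, whose long, heavily phosphorylated tails project from the filament. INA encodes alpha-internexin, a further subunit of neurofilaments in the central nervous system that appears early in neuronal development. PRPH encodes peripherin, a filament protein best known from peripheral neurons and from central neurons that send axons out of the brain, such as motor neurons, and it can assemble together with NEFL. Neurofilament light protein in blood or cerebrospinal fluid is widely used as a marker of axon damage.

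The deposited values are FPKM, fragment counts scaled to transcript length and to the size of the library, with 1 value per gene and group. No value of a single library is in the files used here, so no spread between piglets could be computed, the depth of each library is unknown, and whether the piglets of the 2 groups overlapped cannot be seen. A gene is said to have risen or fallen where the authors' q, adjusted over all tested features, was under 0.05. FPKM is scaled to transcript length, so levels can be compared between genes of a group. Comparing the groups rests on the authors' scaling of one group to the other, which is not stated in the sources used here. In bulk tissue, fewer cells of a type and less RNA per cell cannot be told apart.

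Of the 5 filament genes 4 (PRPH, NEFM, NEFH and NEFL) rose in the antibiotic group by the authors' deposited table, none fell, and INA did not pass. Of all tested features, 41.1% passed this threshold in either direction, 19.0% upwards and 22.2% downwards. The authors' own column of significant calls also asks for a 2-fold change, and it held 3 of the 5 (PRPH, NEFM and NEFH), against 7.37% of tested features called upwards. Because the genes were picked with these values known, nothing is read from the counts. The median deposited log2 fold over the 5 genes was 1.60, and over all tested features it was -0.03.

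**Figure D1:**
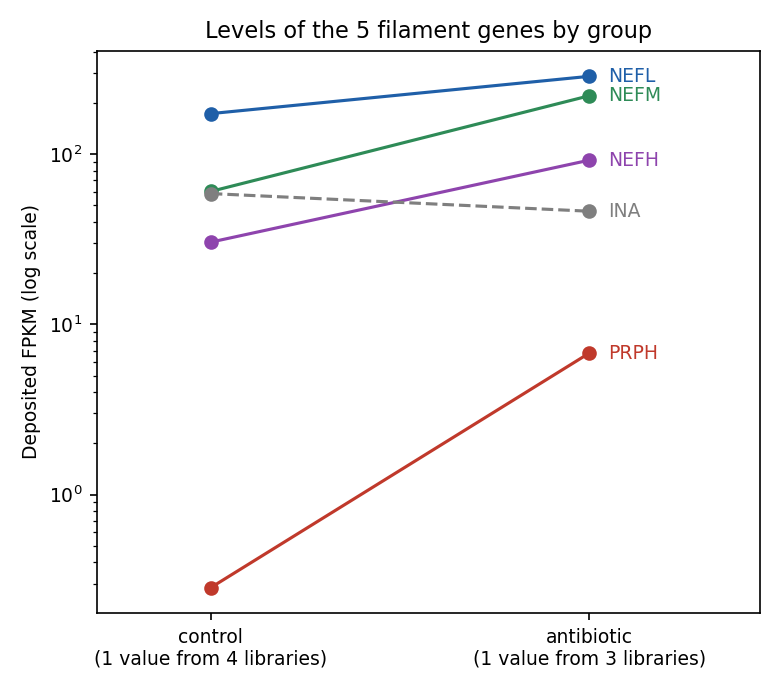
Deposited FPKM (y axis, log scale) of each gene in the control and the antibiotic group, with 1 point per gene and group and a line joining the points of a gene (solid where the authors' q was under 0.05, dashed for INA). PRPH climbs from 0.284 to 6.78 FPKM, NEFL, NEFM and NEFH climb less steeply at higher levels, and INA alone slopes down. No error bars can be drawn because the files hold 1 value per group.

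NEFL, the core subunit, was the most abundant filament transcript in both groups. Its level was 172.9 FPKM in control and 286.3 FPKM in antibiotic, which placed it at rank 427 of the tested features in control and rank 182 in antibiotic. The authors' deposited table gave a 1.66-fold rise with q = 0.00291, a change too small for their 2-fold criterion. Among the 473 other tested features with a mean level within 2-fold of that of NEFL, 50 had a larger log2 fold, and the median was -0.22.

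NEFM, the medium subunit, had the largest rise among the neurofilament subunits. Its level went from 60.3 FPKM in control to 220.2 FPKM in antibiotic, a 3.65-fold rise with q = 0.000336 in the authors' deposited table. That q is the smallest in the table, and 2081 tested features share its p of 5e-05, so the authors' p cannot order them. By size of fold, 8 of the 780 other tested features at a similar mean level exceeded NEFM. The gene moved from rank 1219 to rank 256 in level.

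NEFH, the heavy subunit, followed NEFM closely. Its level was 30.4 FPKM in control and 92.1 FPKM in antibiotic, and the authors' deposited table gave a 3.03-fold rise with q = 0.000336. The log2 folds of NEFM and NEFH, 1.87 and 1.60, differed by 0.27, and whether they differ beyond the spread between piglets was not tested. Of 1826 other features at a similar mean level, 19 had a larger log2 fold than NEFH.

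INA, the alpha-internexin gene, was the exception. It stood at 58.6 FPKM in control and 46.2 FPKM in antibiotic, 1.27-fold lower, with p = 0.0442 and q = 0.0938 in the authors' deposited table. Its log2 fold of -0.34 lay at the 35.1 percentile of tested features with a finite fold. INA and NEFM were nearly equal in control, at 58.6 and 60.3 FPKM, and stood 4.77-fold apart in the antibiotic group.

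PRPH, the peripherin gene, had the largest rise of the 5 and by far the lowest level. It was listed at 0.284 FPKM in control and 6.78 FPKM in antibiotic, a 23.9-fold rise with q = 0.000336 in the authors' deposited table. Its log2 fold of 4.58 was the 10th largest of 13339 finite folds of tested features and the 7th largest among the 2524 rises with a finite fold. In control PRPH lay at the 0.464 percentile of tested features by level, and in antibiotic at the 45.3 percentile. Features this low in control had been tested only where the antibiotic value was higher, since 62 other tested features lay below PRPH in control, all 62 were higher in antibiotic, and 20 of them rose by the authors' q. Their antibiotic levels ran from 0.753 to 48.2 FPKM with a median of 1.24, and 4 of the 62 exceeded PRPH. With 0.1 FPKM added to both values the log2 fold of PRPH was 4.16, and with 1 FPKM added it was 2.60, so the size of this rise rests on the low control value.

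**Figure D2:**
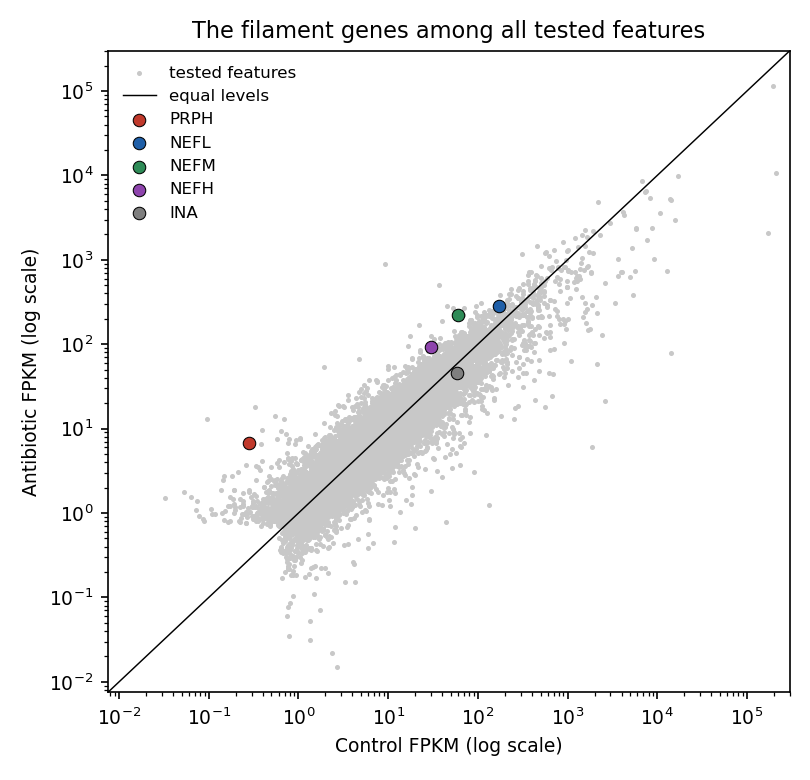
Control FPKM (x axis) against antibiotic FPKM (y axis), both on log scales, for the 13339 tested features with both values above 0 in grey and the 5 filament genes in colour, with a line at equal levels. PRPH lies far above the line at a low control level, NEFM and NEFH lie at the upper edge of the cloud, NEFL lies just above the line among the most abundant features, and INA lies just below the line.

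The order of the levels changed at the middle ranks. In control it was NEFL, NEFM, INA, NEFH and PRPH, and in antibiotic it was NEFL, NEFM, NEFH, INA and PRPH. INA and NEFH therefore changed places, from an INA level 1.93-fold that of NEFH to 0.501-fold. Without values per piglet, it cannot be said which neighbours in either order differ beyond their spread, and NEFM and INA in control are the closest pair, with a ratio of 1.03.

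As shares of their summed level, the neurofilament transcripts shifted from NEFL and INA towards NEFM and NEFH. The NEFL level itself rose, and without values per piglet the spread of these shares could not be computed. The summed level of NEFL, NEFM, NEFH and INA was 322.2 FPKM in control and 644.8 FPKM in antibiotic, 2.00-fold higher. Within that sum NEFL made up 53.7% in control and 44.4% in antibiotic, and INA 18.2% and 7.16%. NEFM made up 18.7% in control and 34.1% in antibiotic, and NEFH 9.43% and 14.3%. The NEFL level was 2.87-fold that of NEFM in control and 1.30-fold in antibiotic, and it was 5.69-fold and 3.11-fold that of NEFH. Multiplying all values of a group by 1 factor leaves these ratios as they are, so they do not depend on a scaling of that kind. Quantile normalization does not multiply by 1 factor and can change them. With it the log2 folds were 1.17 for NEFL and 2.21 for NEFM, against 0.73 and 1.87 as deposited. PRPH stayed a minor transcript beside them, at 0.164% of the NEFL level in control and 2.37% in antibiotic.

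**Figure D3:**
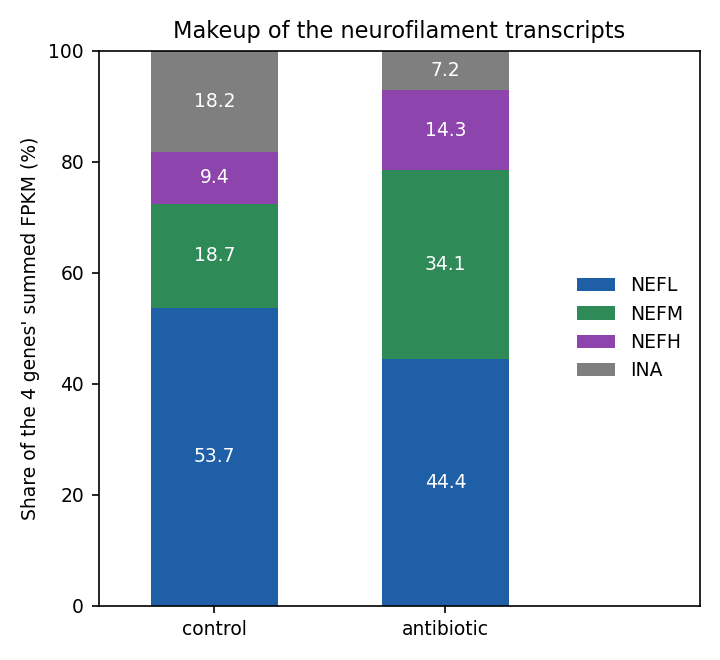
Stacked bars of the share (y axis, percent) of NEFL, NEFM, NEFH and INA in their summed FPKM, with 1 bar for the control and 1 for the antibiotic group. NEFM grows from 18.7% to 34.1% of the sum while INA shrinks from 18.2% to 7.16%.

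In the deposited table NEFL, NEFM, NEFH and INA all lie on chromosome 14 and PRPH on chromosome 5. NEFL spans 10087369 to 10093095 and NEFM 10117122 to 10122685, with 24026 bases and no other row between them, and RefSeq's genes for the assembly Sscrofa11.1 also have them side by side. NEFH spans 49574973 to 49583861, INA 124168526 to 124181132 and PRPH 15691756 to 15695232. Of the builds in the submitters' processing notes only susScr3 is a pig genome, and nothing ties these coordinates to it. None of the 5 loci overlaps another row of the table. Although NEFL and NEFM are neighbours, their log2 folds were 0.73 and 1.87.

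Of the tested rows beside the filament genes that are not filament genes themselves, 1 rose and 1 fell. Over all tested features 19.0% rose and 22.2% fell. ADAM7, the row before NEFL, lay 522394 bases away at 0 FPKM in control and 0.00415 in antibiotic and had not been tested. TROAP, the next gene after PRPH in both the deposited and the RefSeq order, was listed at 0.175 FPKM in control and 0.0962 in antibiotic and had not been tested. The row before PRPH, known only by an Ensembl ID, was at 18.5 FPKM in control and 17.3 in antibiotic, and the authors' deposited table gave q = 0.709. DOCK5, the next row after NEFM, was at 5.68 and 6.24 FPKM, with q = 0.530 in the authors' deposited table. AP1B1, an adaptor subunit of clathrin coats that precedes NEFH, rose from 32.9 to 58.0 FPKM, with q = 0.000336 in the authors' deposited table. NIPSNAP1 on the other side of NEFH stood at 27.5 and 32.9 FPKM, and NT5C2 before INA at 31.8 and 25.4 FPKM, with q of 0.223 and 0.137 in the authors' deposited table. The row after INA, known only by an Ensembl ID, fell from 1.75 to 0.515 FPKM, and its q in the authors' deposited table was 0.00847.

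Locus length classes differed in their folds across the table, with no steady trend from short to long. PRPH spans 3477 bases, NEFM 5564, NEFL 5727, NEFH 8889 and INA 12607. Of tested loci over 2000 and up to 5000 bases, the class of PRPH, 21.2% rose, with a median log2 fold of 0.15 in the authors' deposited table. In the class of NEFL, NEFM and NEFH, over 5000 and up to 10000 bases, 24.2% rose and the median was 0.13, and in that of INA, up to 20000 bases, 26.1% rose and the median was also 0.13. The shortest loci, up to 2000 bases, had 13.5% rises and a median of -0.13, and loci over 50000 bases had 12.8% rises and a median of -0.15. Taken relative to the median of their own length class, the log2 folds were 4.43 for PRPH, 1.74 for NEFM, 1.47 for NEFH, 0.60 for NEFL and -0.47 for INA.

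For each filament gene, the 3 named and tested features with the most similar pair of group levels were looked up, by distance in log2 FPKM over the 2 group values. PRPH was closest to SLC6A3, the dopamine transporter gene, at 0.390 FPKM in control and 9.57 FPKM in antibiotic, with q = 0.000336 in the authors' deposited table. COL18A1 and TRPT1 came next, with q of 0.0518 and 0.160 in the authors' deposited table. NEFM was closest to NCS1, a neuronal calcium sensor, at 63.4 and 214.5 FPKM, then CALY and CPI17, and all 3 rose with q = 0.000336 in the authors' deposited table. NEFH was closest to FBXL16, at 27.6 and 83.3 FPKM, then ACSBG1 and GPT2, and these 3 also rose with that q in the authors' deposited table. NEFL was closest to CSRP1, DDAH1 and PEBP1, and INA to PPAP2A, ELMOD1 and RUFY3. With 2 values per gene, such likeness says only that the levels are close in both groups.

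The deposited annotation gives the term neurofilament to all 5 filament genes. Of 29 tested rows with the term intermediate filament, 6 rose and 5 fell in the authors' deposited table, with a median log2 fold of -0.12, so 4 of the 6 rises are those of PRPH, NEFL, NEFM and NEFH. A list of intermediate filament genes of other cells had 13 tested members, of which 2 rose (15.4%), 3 fell (23.1%) and 8 were not called. These shares are near those of all tested features, of which 19.0% rose and 22.2% fell. The median log2 fold of the list was 0.03. GFAP, the filament of astrocytes, rose 2.20-fold to 4819 FPKM (q = 0.00647 in the authors' deposited table). VIM, which encodes vimentin of glial and vascular cells, fell 1.72-fold to 69.5 FPKM (q = 0.000336 in the authors' deposited table). LMNA, which encodes the nuclear lamins A and C, rose 1.82-fold, and the keratin genes KRT8 and KRT19 fell 1.82-fold and 1.91-fold (q = 0.000625, 0.000625 and 0.00138 in the authors' deposited table).

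Genes whose products modify, carry or degrade neurofilaments are given beside all tested features, of which 19.0% rose and 22.2% fell. Among the 20 tested enzymes that act on filament tails, mostly kinases and phosphatases, 7 rose, 7 fell and 6 were not called. Their median log2 fold was -0.05. CDK5, a kinase that phosphorylates the tails of NEFM and NEFH, rose 1.66-fold, and its activators CDK5R1 and CDK5R2 rose 1.79-fold and 7.45-fold (q = 0.000336, 0.00185 and 0.00229 in the authors' deposited table). PRKACB, a catalytic subunit of protein kinase A, fell 4.06-fold to 197.1 FPKM (q = 0.000336 in the authors' deposited table). Among 11 tested linkers and transport motors 4 rose (KLC1, KLC2, DYNC1I1 and DCTN1), 1 fell (KIF5B) and 6 were not called, around a median of -0.02. KLC2, a light chain of the kinesin motor, rose 3.70-fold to 32.8 FPKM (q = 0.000336 in the authors' deposited table). KIF5A, a kinesin heavy chain that carries neurofilaments, was listed at 1550 and 310.7 FPKM with q = 0.691 in the authors' deposited table. It has 3 rows, its row overlaps another, and so does the row of DCTN1, a subunit of the dynein adaptor dynactin.

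For turnover and chaperones, 5 of 12 tested genes rose, 3 fell and 4 were not called, around a median log2 fold of 0.16. Over all tested features 19.0% rose and 22.2% fell. CAPN1, a calcium-dependent protease that can cut neurofilaments, rose 1.98-fold, and UCHL1, an abundant neuronal ubiquitin hydrolase, rose 1.75-fold (both q = 0.000336 in the authors' deposited table). For regulators and mRNA-binding proteins 3 of 15 rose, 5 fell (ISL1, KLF7, HDAC2, TARDBP and REST) and 7 were not called, around a median of -0.14. SOX11, a transcription factor of growing neurons, rose from 0.449 to 2.33 FPKM (q = 0.0248 in the authors' deposited table). The authors' deposited table had ISL1, a factor of motor and sensory neurons, falling 3.47-fold with q = 0.00352, and TARDBP, whose protein binds the NEFL transcript, falling 2.09-fold with q = 0.000336, from a row that overlaps another. REST is a repressor of neuronal genes and was singled out knowing its values. In the authors' deposited table it fell 1.70-fold to 1.19 FPKM with q = 0.00207. REST has 2 rows, and these values are from its most abundant tested row.

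In a list of other genes of the axonal cytoskeleton the called folds were smaller than those of NEFM and NEFH. Of its 20 tested genes 6 rose, 2 fell (STMN1 and STMN2, which destabilise microtubules) and 12 were not called, around a median log2 fold of 0.25. Over all tested features 19.0% rose and 22.2% fell. The largest of these rises was that of CNTNAP1, a protein of the junction between axon and myelin at the node of Ranvier, at 2.32-fold (q = 0.000336 in the authors' deposited table). NFASC, also of the node, rose 1.73-fold and ADD1, an adducin of the membrane skeleton, 1.66-fold (both q = 0.000336 in the authors' deposited table). Pan-neuronal genes had 7 rises, 2 falls and 5 that did not pass among 14 tested, a median of 0.24, and a summed level of 2963 FPKM in control and 3710 in antibiotic. Their largest called folds were a 3.30-fold fall of CELF4 and rises of TUBB3, 2.83-fold, and SYP, 2.59-fold. For these 3 genes q was 0.000336 in the authors' deposited table. Relative to the pan-neuronal median, the log2 folds were 4.34 for PRPH, 1.63 for NEFM, 1.36 for NEFH, 0.49 for NEFL and -0.59 for INA.

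**Figure D4:**
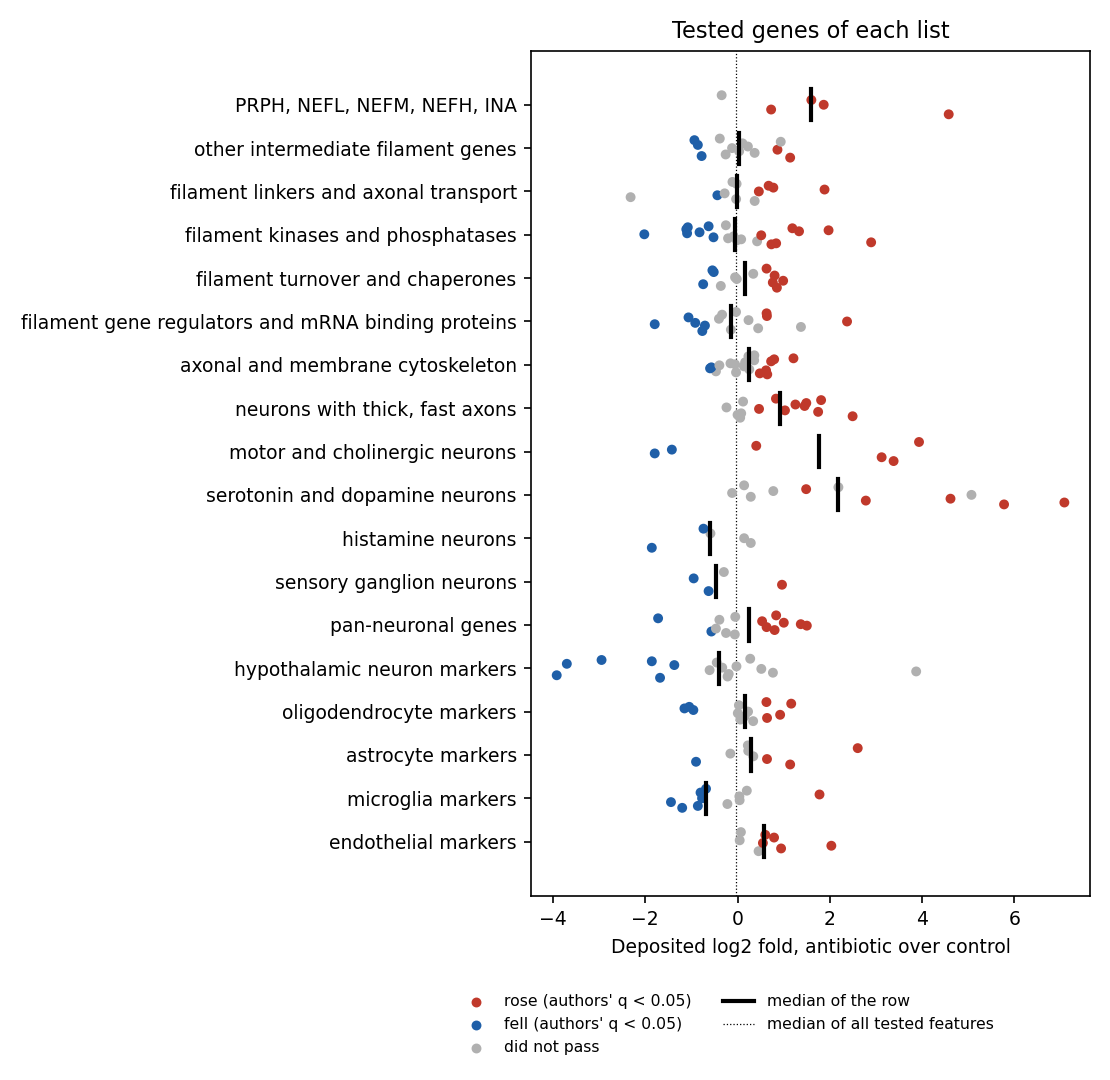
Deposited log2 fold of antibiotic over control (x axis) for each tested gene of each list (rows), with genes in red where they rose, in blue where they fell and in grey where they did not pass the authors' q of 0.05; a black bar marks the median of the row and the dotted line that of all tested features (-0.03). The filament genes, with a median of 1.60, spread from INA at -0.34 to PRPH at 4.58, and most partner lists have medians near 0.

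Marker lists of neuron types that are rich in these filaments, or that lie near PRPH in fold, are given beside the filament genes. Of all tested features 19.0% rose and 22.2% fell. A list for neurons with thick, fast-conducting axons, in which neurofilaments are abundant, had 9 rises, no fall and 5 that did not pass among 14 tested, with a median log2 fold of 0.93 and a summed level of 455.7 FPKM in control and 621.6 in antibiotic. Its largest rises were those of SYT2, a calcium sensor of transmitter release, at 5.64-fold, and the complexin CPLX1 at 3.51-fold, and q was 0.000336 for both in the authors' deposited table. The 5 that did not pass were PVALB, VAMP1, SCN1A, KCNA1 and SPP1. They include the most abundant members of the list, SPP1 at 207.7 FPKM in control and 225.7 in antibiotic, and PVALB at 115.8 and 120.5. PVALB has 2 rows, and its row overlaps another. The motor and cholinergic list, of neurons that make peripherin when they project out of the brain, had 4 rises (CHAT, SLC5A7, ACHE and NGFR) and 2 falls (ISL1 and CHODL) among 6 tested, with a summed level of 75.8 FPKM in control and 98.7 in antibiotic. CHAT and NGFR lay below PRPH in control, where each tested feature was higher in antibiotic, so their calls could go only upwards, and with at least 5 FPKM in a group the list had 3 tested members and a median log2 fold of 0.41 instead of 1.76. At a q of 0.01, 3 of its 6 calls were left. PHOX2A and TBX20 of that list were listed at 0 in control and had not been tested. The serotonin and dopamine list had 5 rises, no fall and 6 that did not pass among 11 tested, with a summed level of 53.7 and 119.8 FPKM. SLC6A4, EN1 and LMX1B of that list also lay below PRPH in control, so their calls too could go only upwards. Of the other 8 tested members 4 rose. Among these, TPH2 and SLC6A3 lay just above PRPH in control, at 0.329 and 0.390 FPKM. SIM1 of another list, at 0.391 FPKM in control and 0.0904 in antibiotic, had not been tested. The same limit may therefore hold for TPH2 and SLC6A3.

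The remaining marker lists cover other neurons, glia and vessels, and of all tested features 19.0% rose and 22.2% fell. The histamine list had 2 falls (HDC and HNMT), no rise and 3 that did not pass among 5 tested, with a summed level of 81.3 FPKM in control and 63.1 in antibiotic. Sensory ganglion genes had 1 rise (NTRK3) and 2 falls (NTRK2 and SCN9A) among 4 tested, 6 of their 10 matched members were under 1 FPKM in both groups, and SCN10A and SCN11A were listed at 0 in antibiotic. The hypothalamic peptide genes OXT, AVP and PMCH were above 0 in both groups, at 310.1, 210.6 and 281.6 FPKM in control and 96.8, 181.3 and 18.6 FPKM in antibiotic, while KISS1 was listed at 0 in control and had not been tested. The list of hypothalamic peptides, regulators and HDC had 6 falls, no rise and 10 that did not pass among 16 tested, with a summed level of 1134 FPKM in control and 466 in antibiotic. Oligodendrocyte markers summed to 10501 FPKM in control and 12581 in antibiotic, with 4 rises, 3 falls and 6 that did not pass among 13 tested. Astrocyte markers had 3 rises and 1 fall among 8 tested (3566 and 6224 FPKM), microglia markers 1 rise and 6 falls among 11 (582.9 and 363.2 FPKM), and endothelial markers 5 rises and no fall among 8 (164.1 and 273.3 FPKM). The part of the cell makeup in the filament values was not tested.

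The folds of the filament genes kept their order under each setting tried, but only some settings could have changed it. Upper quartile scaling, trimmed mean scaling, rescaling to the same sum and the pan-neuronal median shift all log2 folds by 1 constant. They leave the order as it is by construction. Quantile normalization and the pseudocounts could have reordered the genes and did not. The length classes could not, since NEFL, NEFM and NEFH share a class. The medians of the 3 classes, 0.15 for PRPH, 0.13 for these 3 and 0.13 for INA, are also too alike to reorder the rest. NEFM had a log2 fold of 1.95 with upper quartile scaling, 1.90 with trimmed mean scaling and 2.21 with quantile normalization, and NEFH 1.68, 1.63 and 1.76. NEFL went from 0.73 as deposited to 1.17 with quantile normalization, which took it past 2-fold. INA went from -0.34 to -0.22 with quantile normalization, and it turned to 0.78 only when the whole table was rescaled to the same sum. That last setting moved the median of all tested features by 1.13, since the sum over the table was 1.23e+06 FPKM in control and 563424 FPKM in antibiotic, and INA then lay below the shifted median of 1.10.

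**Figure D5:**
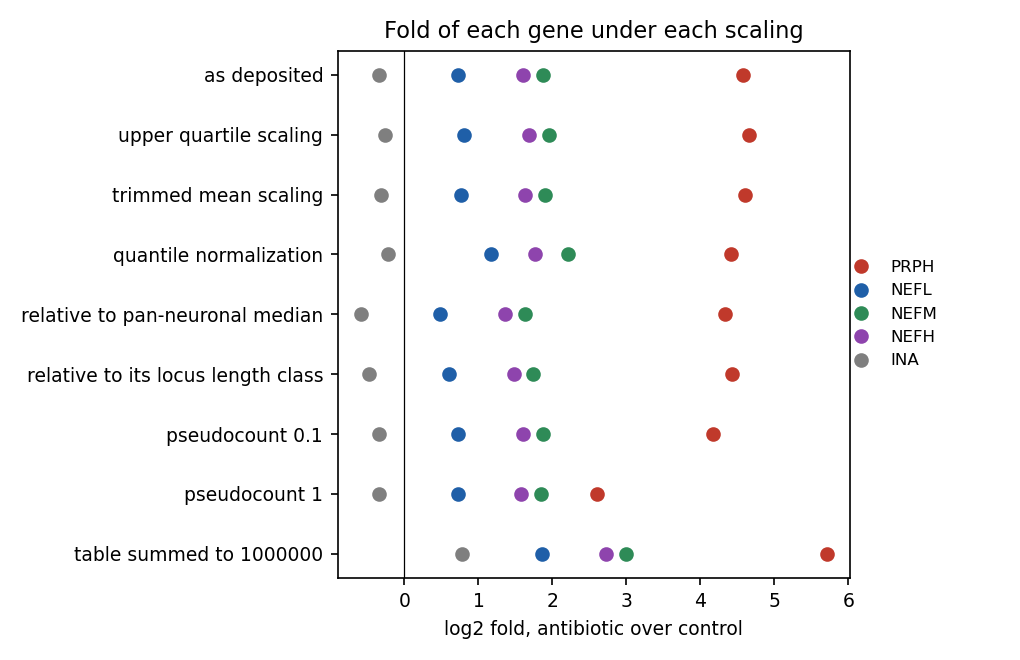
Log2 fold of antibiotic over control (x axis) for each of the 5 genes under each setting (rows), with 1 point per gene and a vertical line at 0. PRPH lies rightmost throughout, at 4.58 as deposited and 2.60 with 1 FPKM added; NEFM, NEFH and NEFL follow in that order; and INA lies left of 0 in all rows but that of the table rescaled to the same sum.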

How the data were processed

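RNA-seq libraries of hypothalamus from 4 control and 3 antibiotic piglets were grouped by their titles. Bowtie 0.12.2, susScr3 and mm8 are named in the submitters' processing notes with no role. The annotation, the use of strand and the program behind the q are not stated in the sources used here. Deposited by the authors were 1 FPKM value per feature and group, a log2 fold of antibiotic over control with no pseudocount, and a p-value and q-value per feature. For the 5 genes the deposited fold was within 0.01 of the log2 ratio of the printed values. The authors' significant column equals q under 0.05 with a 2-fold change in every row. After 6 rows without a name were left out, features were counted from these columns. With no value per library, the depth is unknown and no test over libraries could be run, so the q is the authors' own, and how far it holds the spread between piglets is unknown.

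The members and the 17 gene lists were chosen with earlier results of these data known. Of 249 listed symbols 208 matched a row, 26 of them by Ensembl ID, and 191 had been tested. Where a symbol had several rows, the most abundant tested row stood for it. Named genes are all 5 members, the 3 largest called folds with at least 1 FPKM in a group and the most abundant member of a list, every called member where 5 or fewer passed, the 3 features most like each member and the rows beside it; some of the genes so chosen appear by count only or are not reported here. Alternatives were upper quartile, trimmed mean and quantile scaling, pseudocounts of 0.1 and 1, a stricter q of 0.01, and a floor of 5 FPKM in either group. Chosen after seeing the data were rescaling the table to a sum of 1000000, folds relative to pan-neuronal genes or a length class, and adding PRPH to the summed subunits. The scaling steps were tested on simulated data. Python 3.11.15 with pandas 2.3.3, numpy 2.4.6 and matplotlib 3.10.9 was used.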

Additional observations from a re-analysis of the deposited data

How the results depend on the processing

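Of the 5 filament genes, 4 passed at a q of 0.05 and also at 0.01, and 3 were in the authors' significant column. As deposited, 3 had a 2-fold change, a number that stayed at 3 with upper quartile and trimmed mean scaling and was 4 with quantile normalization. The authors' q could not be recomputed under another scaling. The gain of NEFM in its share of the summed subunits, 15.4 percentage points, was 15.5 with quantile normalization and 15.1 with PRPH added. With the table rescaled to a sum of 1000000, the log2 folds were 5.71 for PRPH, 3.00 for NEFM, 2.73 for NEFH, 1.86 for NEFL and 0.78 for INA. Linker and transport genes past the threshold dropped from 5 to 2 at a q of 0.01, motor and cholinergic genes from 6 to 3 and endothelial markers from 5 to 3. Regulator genes past it dropped from 8 to 5 with at least 5 FPKM in a group, where 7 of the 15 were left to count. The medians of the linker, kinase and other filament lists, all within 0.1 of 0 as deposited, changed sign under at least 1 setting. Leaving out single libraries was not run because the files used here hold no value per library. No paired analysis was possible because the deposited columns hold group values only and the labels do not tie replicate numbers to blocks. No value per library means that the depth behind the low control level of PRPH is unknown.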
